A study of Mus musculus with 7 samples.

Results

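Gliomas labelled EGFRvIII were set against the cultured neural progenitors of the same study, gene by gene. The comparison used 4 of the 7 libraries, which were taken by their titles: 3 gliomas labelled EGFRvIII and 1 culture of progenitors carrying PDGF-B. The 3 gliomas labelled PDGF-B, all independent tumours like the others, entered the model for their spread and served as a side comparison. All cells came from embryonic day 14 neural precursors of the BALB/c mouse strain, grown on Matrigel with 10 ng/ml of human bFGF and EGF and infected with retroviruses that also carried the red fluorescent protein DsRed. For the gliomas labelled EGFRvIII the precursors were Ink/Arf -/- and received EGFRvIII. The gliomas labelled PDGF-B and the culture were wild type and received PDGF-B. For a tumour, 20000 cells were injected into the brain of an adult BALB/c mouse 10 days after infection, and the tumour was dissected at the first neurological symptoms. Tumour cells and cultured cells were both sorted for DsRed. The labels do not give the culture's time after infection, the sex of the embryos or hosts, or which species' coding sequences the retroviruses carried. By the labels, growth in a brain against growth in a dish, genotype and oncogene all changed together between the gliomas labelled EGFRvIII and the culture, so their parts cannot be told apart.

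EGFRvIII is a shortened form of the epidermal growth factor receptor that signals without ligand and is found in human glioblastoma. PDGF-B binds receptor tyrosine kinases of the PDGF receptor family, and it drives division of oligodendrocyte precursors, which carry the alpha receptor. The Ink/Arf locus is Cdkn2a, whose products hold back the cell cycle through the RB and p53 pathways. A growing glioma also recruits microglia, the resident macrophages of the brain, and macrophages from blood, and these cells produce complement, lysosomal enzymes and cytokines. Neural progenitors in a dish with bFGF and EGF keep a radial glia and stem cell state in which Notch and FGF signalling are active.

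Recovered depth was 34306178 to 39062580 reads in the gliomas labelled EGFRvIII, 36061668 in the culture and 32513754 to 33753705 in the gliomas labelled PDGF-B. Levels are given as CPM, read counts scaled to the library's effective size, which is its depth times a scaling factor. The factor was 1.0164, 0.8564 and 1.0636 in replicates 1 to 3 labelled EGFRvIII. CPM are not corrected for gene length and are compared only within a gene. Each file listed 17422 genes. The 3 gliomas labelled EGFRvIII were closer to each other (Spearman correlations of 0.952 to 0.978 across genes) than to the culture (0.844 to 0.878). Genes are not independent replicates, so these are descriptions. Some of the libraries stood apart. Replicate 2 labelled PDGF-B was low in dividing-cell genes, with Mki67 at 64.6 CPM against 512 and 554 in its group. Replicate 3 labelled PDGF-B had Spearman correlations of 0.960 and 0.965 with replicates 1 and 3 labelled EGFRvIII. With replicates 1 and 2 of its own group they were 0.963 and 0.949. Its level of Lyz2, a macrophage gene, was 613 CPM against 22.4 and 19.2 in its group. Replicate 2 labelled EGFRvIII was high in haemoglobin and MHC genes. The culture had 9.53% of its CPM in mitochondrial genes, against 4.2% to 6.14% in the gliomas. Differences are log2 of the glioma level minus log2 of the culture level, with a standard error (SE). They were called at an adjusted p under 0.05 with limma over all 17422 genes. The culture was 1 library without a replicate, and the test assumed that it varied like the gliomas.

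The genes that define the models were read first, and they went against the labels. Pdgfb (ENSMUSG00000000489, chr15:79995874-80014977, mm10), the ligand gene, stood at 386, 284 and 277 CPM in replicates 1 to 3 labelled EGFRvIII, a mean of 316 ± 60.9 CPM (SD, n = 3). The culture, which by its label received PDGF-B, had 245 CPM. All 3 gliomas were somewhat above the culture, and the difference of 0.35 ± 0.471 (SE) missed the test (limma adjusted p = 0.716). The gliomas labelled PDGF-B had only 1.95, 2.97 and 4.88 CPM. Those labelled EGFRvIII exceeded them by 6.65 ± 0.333 on the log2 scale (limma adjusted p = 0.000991).

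Egfr (ENSMUSG00000020122, chr11:16752203-16918158), the epidermal growth factor receptor gene, ran the opposite way. The gliomas labelled EGFRvIII had 41.2, 26.9 and 25.6 CPM, a mean of 31.2 ± 8.63 (SD, n = 3), while the culture had 282 CPM. The culture level was 9.04-fold higher, and the log2 difference of -3.21 ± 0.362 (SE) passed the test (limma adjusted p = 0.00225). In the gliomas labelled PDGF-B, Egfr reached 4952, 5109 and 3594 CPM. No glioma of one label overlapped a glioma of the other in Egfr or in Pdgfb. The libraries labelled EGFRvIII thus had the higher Pdgfb and the lower Egfr of the glioma groups, and the tumours are called here by their labels only. Directions below are those of the labelled libraries.

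Cdkn2a (chr4:89274471-89294653) is the locus that the label Ink/Arf -/- says is missing. It stood at 22.7, 26.1 and 11.2 CPM in the gliomas labelled EGFRvIII, at 10.7 CPM in the culture and at 3.52, 2.94 and 4.99 CPM in the gliomas labelled PDGF-B. The difference from the culture missed the test (0.81 ± 0.555, limma adjusted p = 0.434), and that from the gliomas labelled PDGF-B passed (2.31, limma adjusted p = 0.0327) but was called in only 1 of 6 fits that left out a glioma. Reads over the gene do not show which exons they cover, so a partial deletion could not be checked. Cdkn2b, the neighbouring cell cycle inhibitor, had 15.1, 44.1 and 44.4 CPM against 22.9 in the culture (limma adjusted p = 0.759). The receptors of PDGF-B differed in level. Pdgfra had 1904, 1402 and 1773 CPM against 408 in the culture, a difference of 2.04 ± 0.554 that missed the test (limma adjusted p = 0.066) but passed it without replicate 3 labelled PDGF-B (limma adjusted p = 0.0119). Pdgfrb, the receptor of pericytes, had 0.958, 1.58 and 3.95 CPM against 1.22 (limma adjusted p = 0.81).

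**Figure D1:**
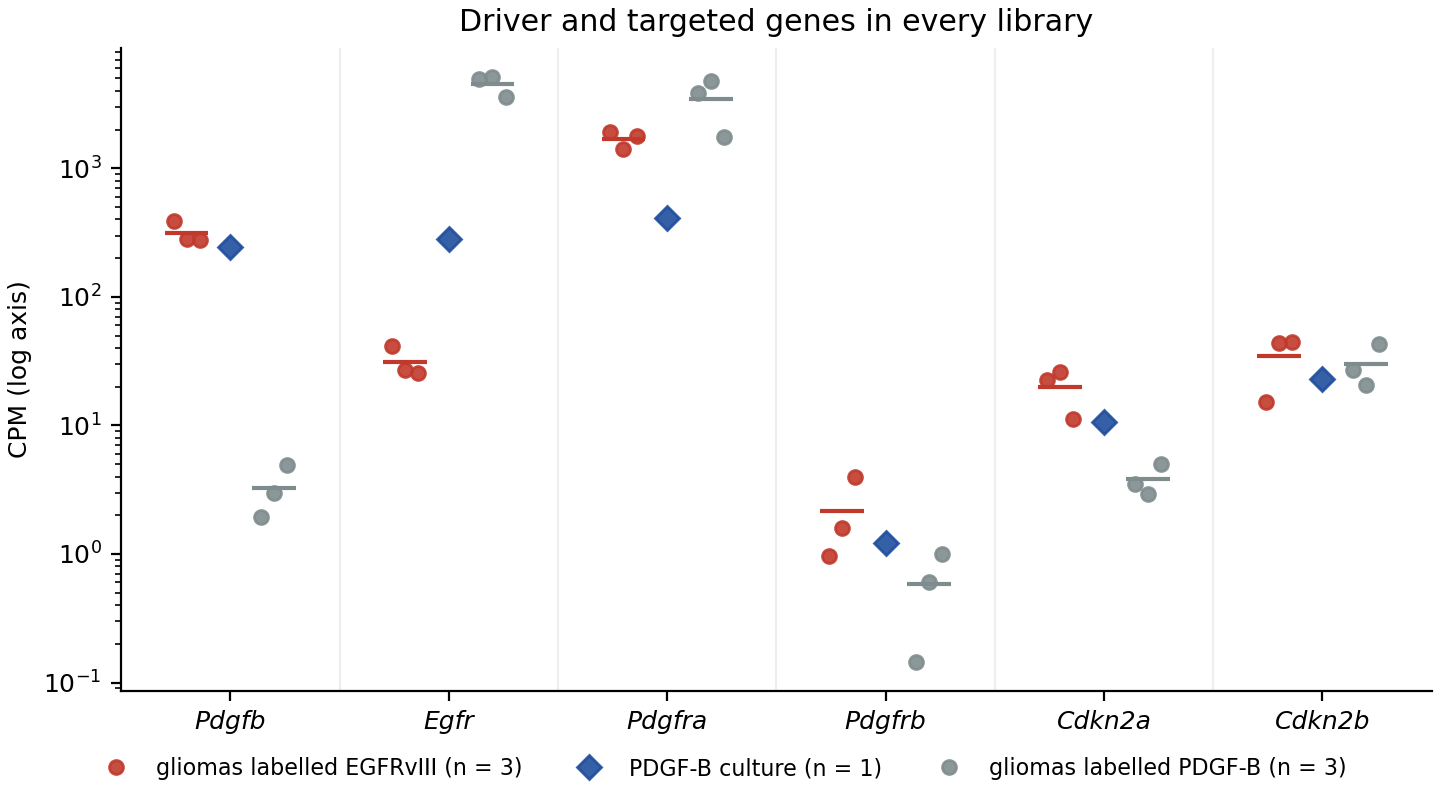
Levels of 6 genes that define or receive the oncogenic signals, in CPM on a log axis, in each of the 7 libraries, with group means as bars. The 3 gliomas labelled EGFRvIII sit beside the culture in Pdgfb and far below the gliomas labelled PDGF-B in Egfr.

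Across all genes, 1663 of 17422 (9.55%) differed between the gliomas labelled EGFRvIII and the culture: 1429 were higher in the gliomas (8.2%) and 234 lower (1.34%). Each list below is read against these shares. An unadjusted p under 0.05 was reached by 4157 genes. With the median of all genes set equal in every library, which moved the median difference from 0.0127 to -0.197, 1208 genes were higher and 452 lower, so the higher share went from 85.9% to 72.8%. The culture level lay below all 3 gliomas for 34.1% of genes and above all 3 for 29.6%, so outside their range for 63.7%. The count of calls was 1084 without replicate 1 labelled EGFRvIII and 1058 without replicate 3. No gene called both here and in an alternative fit had opposite signs in them. The gliomas labelled PDGF-B differed from the same culture library in 9.45% of genes (7.73% higher, 1.73% lower), and because that library is shared, likeness between the comparisons is not read as a result.

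**Figure D2:**
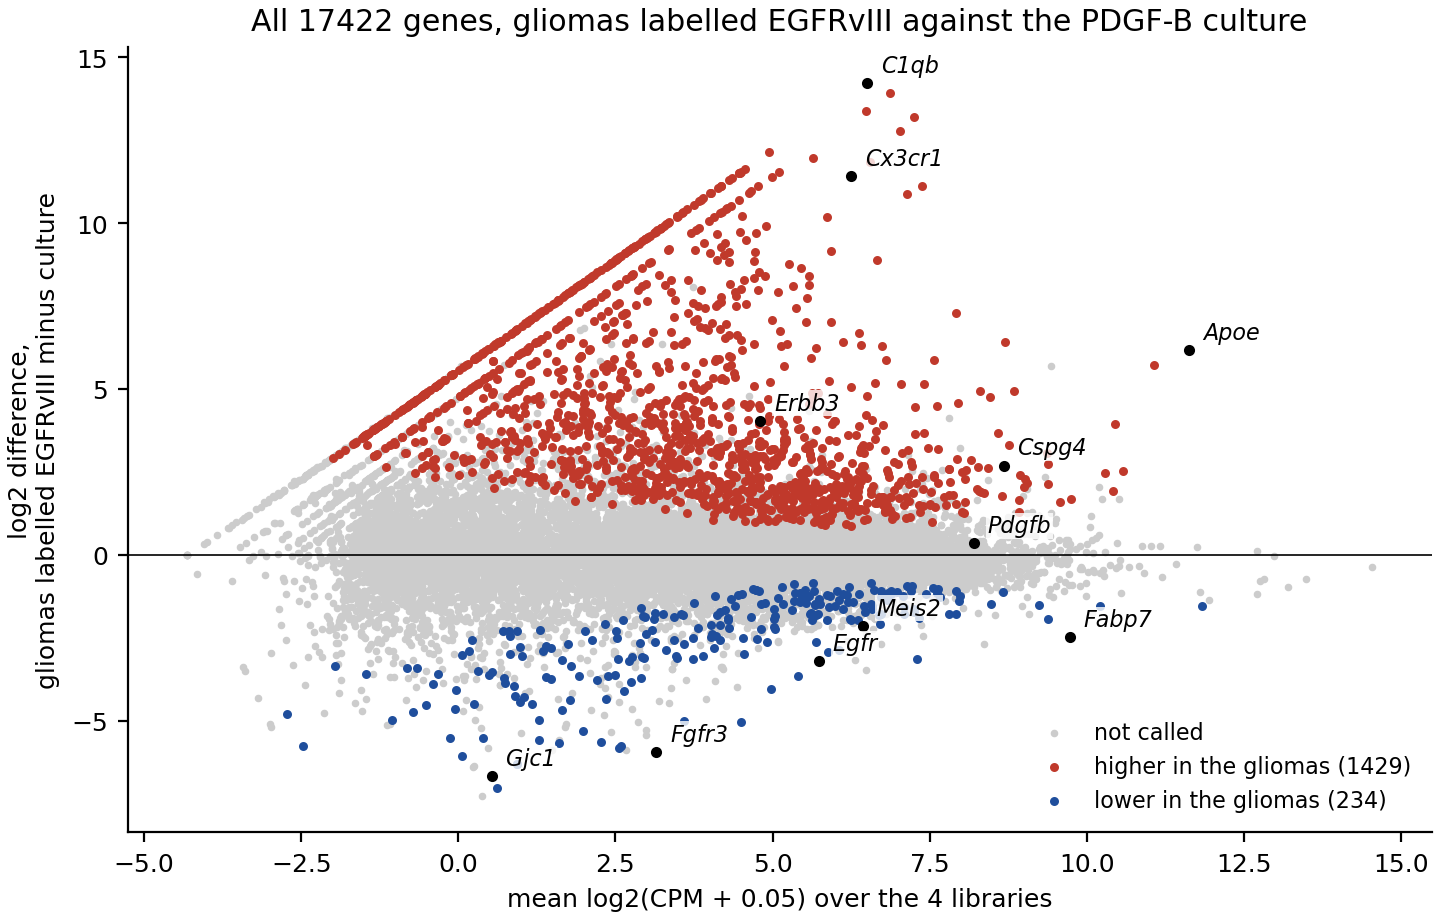
Log2 difference between the gliomas labelled EGFRvIII and the culture (vertical axis) against mean log2(CPM + 0.05) over the 4 libraries compared (horizontal axis), 1 point per gene. The 1429 genes called higher are red and the 234 called lower are blue, and C1qb and Cx3cr1 lie near the top. The straight diagonal rows of points are genes with few or no culture reads.

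The genes with the highest differences were those of microglia and macrophages. C1qb (chr4:136880129-136886187), a chain of C1q, the complement component that tags synapses and debris, had 771, 2454 and 717 CPM in the gliomas labelled EGFRvIII, a mean of 1314 ± 987 (SD, n = 3). It had no read in the culture. Against a floor of 3 reads in the culture library it was at least 15130-fold higher (log2 difference 14.23 ± 0.839, limma adjusted p = 0.000307). Fitted differences of genes with hardly any culture reads depend on the prior count that the authors added. The other chains, C1qa and C1qc, had 1 read each in the culture and 827, 2976 and 975 CPM, and 625, 2016 and 638 CPM, in the gliomas. Their ratios were 55010 (95% counting interval 9873 to 2173000) and 37760 (6778 to 1492000). All 3 chains also exceeded the gliomas labelled PDGF-B, where C1qb had 48.3, 71.7 and 167 CPM (log2 difference 3.73, limma adjusted p = 0.0306), but these differences were called in only 1 of 6 fits that left out a glioma.

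Of the other 9 genes in the group of largest rises, Ctss, a lysosomal protease of antigen-presenting cells, had 904, 2281 and 849 CPM against 0.116 in the culture (limma adjusted p = 0.000431). Lyz2, the macrophage lysozyme, had 2358, 1785 and 821 CPM against 0.104 (limma adjusted p = 0.00457). Fcrls, a microglial Fc receptor-like gene, had 284, 452 and 138 CPM and no culture read, and was at least 3356-fold higher. Itgam, the integrin alpha chain CD11b, had 268, 649 and 390.0 CPM against 0.0437, a ratio of 9967 (2340 to 136700). Laptm5, a lysosomal membrane protein of blood cells, had 557, 1108 and 642 CPM against 0.145 (limma adjusted p = 0.000245). Tyrobp, the adaptor of Trem2, was at least 2569-fold higher, the inhibitory Fc receptor gene Fcgr2b at least 2247-fold and Rgs1, a regulator of G protein signalling, at least 2000-fold. Fcgr3, an activating Fc receptor gene, had 170.3, 709.5 and 144 CPM against 0.029 in the culture. Replicate 2 was the highest of the 3 gliomas in 11 of these 12 genes, Lyz2 being the exception.

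The marker lists gave the same picture at the level of groups. Of 20 homeostatic microglia markers, all measured, 17 rose and none fell, with a median difference of 10.12 (9.91 with genes absent from the culture at their bound) against 0.0127 over all genes. Cx3cr1, the fractalkine receptor, was among the steadiest, with 519.9, 589 and 559.7 CPM in the gliomas against 0.145 in the culture (11.42 ± 0.454, limma adjusted p = 9.29e-05). P2ry12, the purinergic receptor of ramified microglia, had 150.0, 312 and 189 CPM against 1.53 (limma adjusted p = 0.00029). Csf1r, the receptor on which microglia depend, had 615, 1384 and 951 CPM against 0.434 (limma adjusted p = 0.000307). Tmem119 had 68.5, 137 and 85.9 CPM against 0.029. The 3 that missed the test were Sall1, Slc2a5 and Sparc. Of these, Sall1 had 55.3, 76.2 and 162 CPM against 86.1, and Sparc 192, 1611 and 512 CPM against 504.

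Activated microglia markers were split: 13 of 20 rose, none fell, and the median difference was 5.70. Apoe, the lipid carrier, had 10000, 11260 and 6981 CPM against 129 (6.16 ± 0.91, limma adjusted p = 0.00639), and Itgax, the integrin CD11c, at least 1519-fold more than in the culture (limma adjusted p = 6.29e-05). Igf1, a growth factor made by activated microglia, had 68.7, 28.2 and 46.8 CPM against 0.232 in the culture and 0.818 to 6.33 in the gliomas labelled PDGF-B, a difference of 4.71 from the latter (limma adjusted p = 0.0327). Spp1, osteopontin, had 1011, 5213 and 1188 CPM against 35.7, yet it missed the test (limma adjusted p = 0.133). Its levels in the gliomas labelled PDGF-B, which share the fit, ran from 8.27 to 400.3 CPM, and it passed without replicate 1 of that group. Among macrophage and monocyte markers, 13 of the 17 measured (of 20 fixed) rose, with a median of 8.33. Adgre1, the antigen of the F4/80 antibody, had 99.1, 156 and 87.0 CPM and no culture read, at least 1314-fold more (limma adjusted p = 0.000533). Mrc1, the mannose receptor of border macrophages, was at least 826-fold higher, with 136, 40.1 and 39.0 CPM. Ccr2 of blood monocytes stayed low, at 1.58, 5.28 and 1.64 CPM with no culture read, and its call was lost without any one of the 3 gliomas. Weighted by voom, which discounts genes with few reads, the counts were 11 of 20, 6 of 20 and 5 of 17.

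The summed CPM of the homeostatic list was 4559, 11380 and 5890 in the gliomas labelled EGFRvIII, 633 to 1524 in those labelled PDGF-B and 616 in the culture. In the culture, 504 of the 616 CPM were Sparc and 86.1 were Sall1, which neural cells also express. The macrophage and monocyte list summed to 2689, 5276 and 2465 CPM against 21.6 in the culture. Defining markers such as Trem2, P2ry13, Bin2, Adgre1, Fcgr1 and Mrc1 had no read in the culture. Between the glioma groups, 16 of 20 homeostatic markers were called higher in those labelled EGFRvIII, a count that was 0 to 2 when any glioma but replicate 3 labelled PDGF-B was left out, against 2.59% of all genes (3.31% called in either direction, 0.712% lower), and Cx3cr1 differed by 3.19 (limma adjusted p = 0.0178). The Cx3cr1 difference was called in only 1 of 6 fits that left out a glioma. In RNA from sorted pools, more cells of a type and more RNA per cell cannot be told apart. The label's sort would leave out cells without DsRed, and its purity was not tested.

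**Figure D3:**
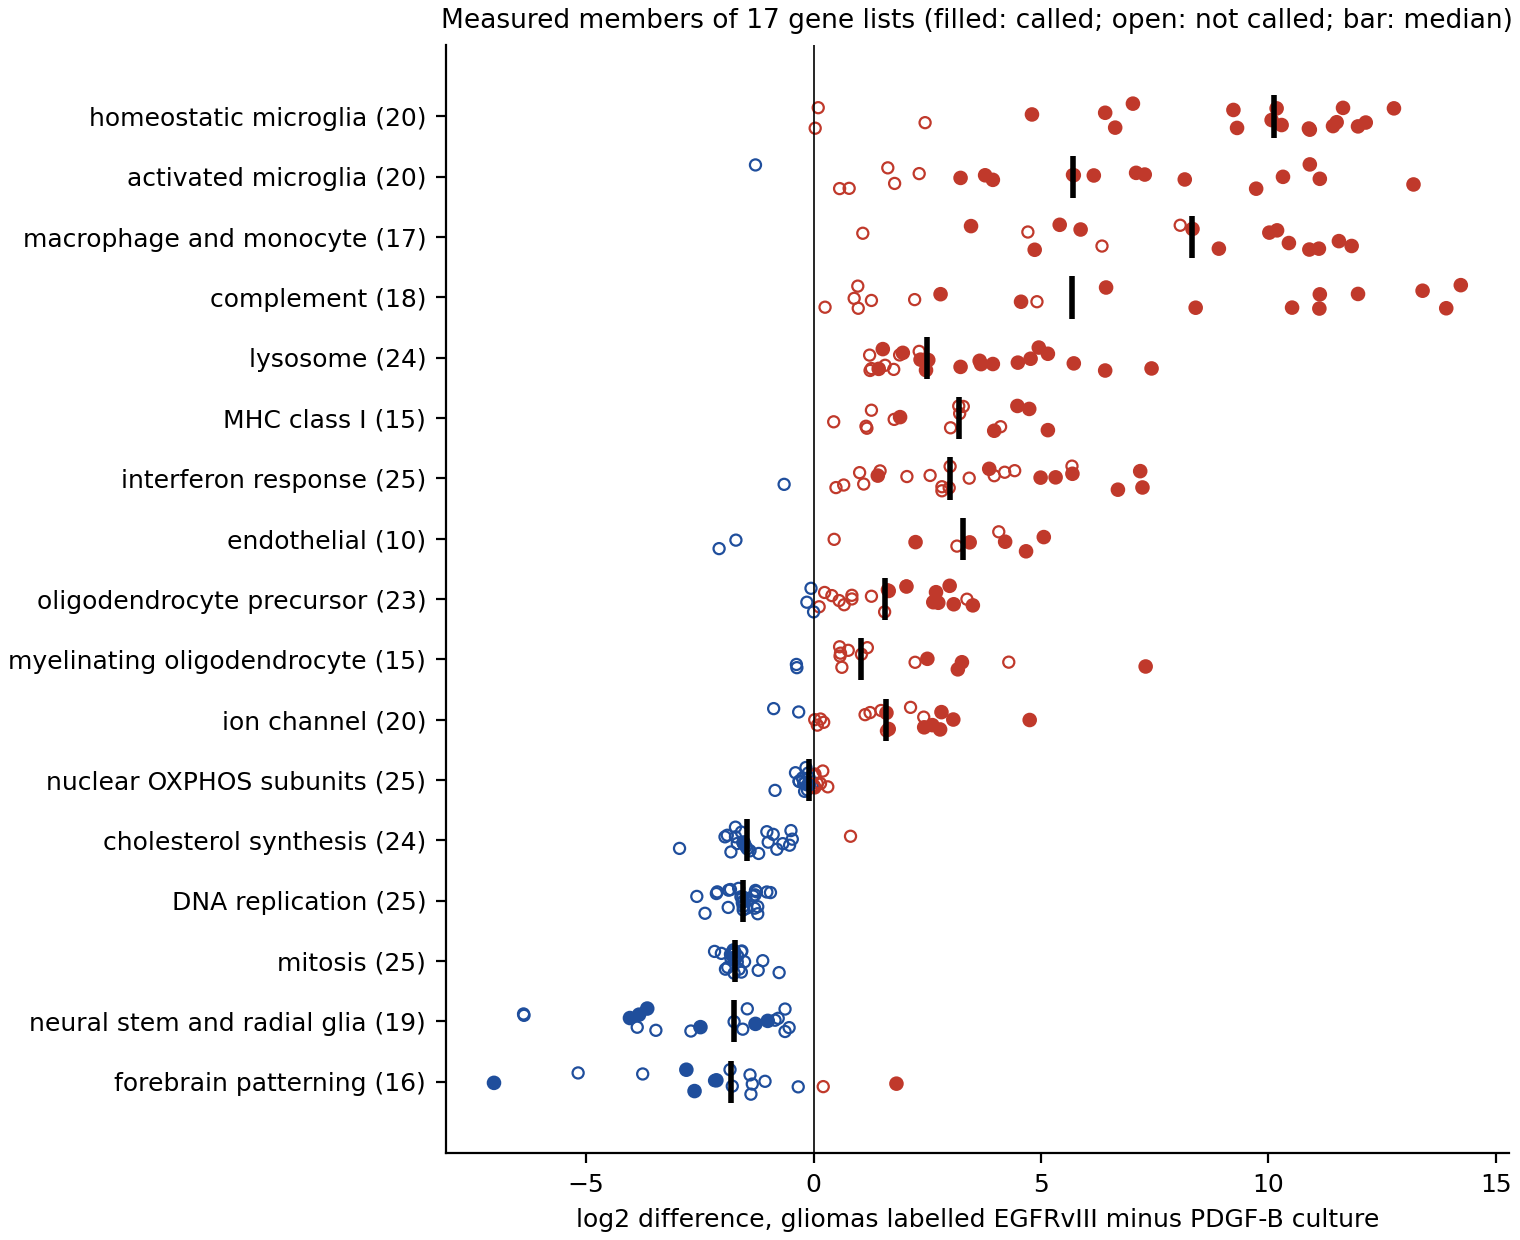
Log2 difference between the gliomas labelled EGFRvIII and the culture for every measured member of 17 lists. Filled points passed the test, open points did not, and bars are medians, which run from 10.12 for homeostatic microglia to -1.82 for forebrain patterning genes.

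Other blood and vessel cells left weaker traces. The B cell list had 3 of 8 members measured, and all rose: Ighm, the IgM heavy chain, had 13.02, 23.2 and 16.6 CPM, at least 203-fold above the culture, and Bank1 and Cd79b stayed under 2.4 CPM. Cd79b missed the test without replicate 1. Of 15 fixed T and NK cell markers only 2 were measured, so the rest could not be tested. Neither passed with limma or voom weights (1 had an unadjusted p under 0.05): Cd4 had 9.91, 0.508 and 0.954 CPM and Lck 0.143, 0.508 and 0.327. Only 2 of 10 fixed neutrophil markers were measured. Csf3r, the G-CSF receptor, rose to 61.7, 111 and 114 CPM from 0.0897, and the other measured neutrophil marker, Mmp8, missed the test. Endothelial markers rose in 5 of 10 measured, at low levels, such as Cdh5 (1.35, 1.34 and 1.55 CPM with no culture read) and Pecam1 (2.04, 3.45 and 2.04 CPM against 0.174). That count was 3 of 10 without replicate 3 labelled EGFRvIII and 2 of 10 with voom weights. The culture lay above all 3 gliomas for 2 of the 10 measured (of 14 fixed). The 2 most abundant members missed the test. Flt1 was lower in the gliomas, at 4.70, 7.65 and 14.8 CPM against 26.6. Vwf was higher, at 11.1, 3.74 and 8.72 CPM against 0.753, and passed without replicate 3 labelled PDGF-B. The endothelial list summed to 36.9, 51.1 and 53.4 CPM against 36.0 in the culture. Haemoglobin genes were seen mainly in replicate 2: Hbb-bs had 0.86, 45.1 and 1.88 CPM. No erythroid gene of the 4 measured (of 8 fixed) passed with limma or voom weights (3 had an unadjusted p under 0.05). Of 13 measured mature neuron markers 1 passed, and its call was lost without replicate 2 labelled EGFRvIII or replicate 1 labelled PDGF-B. Of 13 mural and fibroblast markers, 3 rose: Cspg4, which oligodendrocyte precursors share, and Anpep and Abcc9, each of which lost its call in 2 leave-one-out fits. The count was 1 without replicate 3 labelled EGFRvIII, and 4 higher and 2 lower without replicate 3 labelled PDGF-B.

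Complement followed the myeloid markers. Of 18 measured components and receptors, 11 rose and none fell, with a median of 5.67. C3ar1, a receptor for complement fragments, had 98.0, 194 and 109 CPM, with 1 culture read. C4b, which astrocytes and oligodendrocyte lineage cells make as well, had 319, 188 and 160.4 CPM against 2.42 (6.43 ± 0.434, limma adjusted p = 0.000431). Unlike C1q, C4b was higher still in the gliomas labelled PDGF-B (532 to 875 CPM, limma adjusted p = 0.0369). Leaving out 1 glioma gave 3 to 1250 calls between the glioma groups over all genes, and the C4b call was not followed through those fits. C3 itself, at 8.14, 29.6 and 18.4 CPM against 0.492, missed the test (limma adjusted p = 0.0546) and passed without replicate 3 labelled PDGF-B. With voom weights 4 of 18 were called.

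Cytokine and chemokine genes rose in 11 of 22 measured, with a median of 4.14. Il1a, an alarm cytokine of microglia, had 99.8, 236 and 76.9 CPM against 0.274 (limma adjusted p = 0.00111). Tnf and Il1b had no culture read and were at least 560-fold and 825-fold higher, with Il1b at 23.2, 156 and 36.0 CPM. Ccl3 had 64.2, 245 and 83.8 CPM with 1 culture read, and Ccl4 14.5, 121 and 24.1 CPM with none. Tgfb1, the ligand that sustains microglial identity, had 61.2, 103 and 75.6 CPM against 0.897 (6.36 ± 0.64, limma adjusted p = 0.0015). Cxcl14 rose less, from 29.96 CPM to 107, 145 and 95.6 (limma adjusted p = 0.00595). Il34 and Csf1, the ligands of Csf1r, missed the test: Csf1 had 57.2, 151 and 102 CPM against 56.0. Il33 and Il18 missed it too. Replicate 2 was the highest in Il1a, Il1b, Tnf, Ccl3 and Ccl4. Weighted by voom, 2 of 22 were called.

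Lysosomal genes were higher in the gliomas without exception in direction: the culture was below all 3 gliomas for 24 of 24, and 17 passed, with a median of 2.5. Ctsd, the aspartic protease cathepsin D, had 3432, 12940 and 4414 CPM against 110.1, a 63.0-fold difference (5.72 ± 0.776, limma adjusted p = 0.00467). Ctsb, a cysteine protease, had 2009, 5132 and 2044 CPM against 179.9 (limma adjusted p = 0.00538). Hexa, a hexosaminidase subunit, had 201, 549.9 and 221 CPM against 23.1. Grn, progranulin, had 521, 1330.0 and 742 CPM against 29.4 (limma adjusted p = 0.00468). Membrane proteins of the organelle moved less: Lamp1 had 837, 1189 and 639 CPM against 357 and missed the test (limma adjusted p = 0.0758), as did Lamp2. Tfeb, the transcription factor of the network, had 7.6, 15.7 and 12.2 CPM against 3.30 and missed it as well. The microglial sums given above moved with complement, cytokine and lysosomal genes, and their part in these results was not tested.

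**Figure D4:**
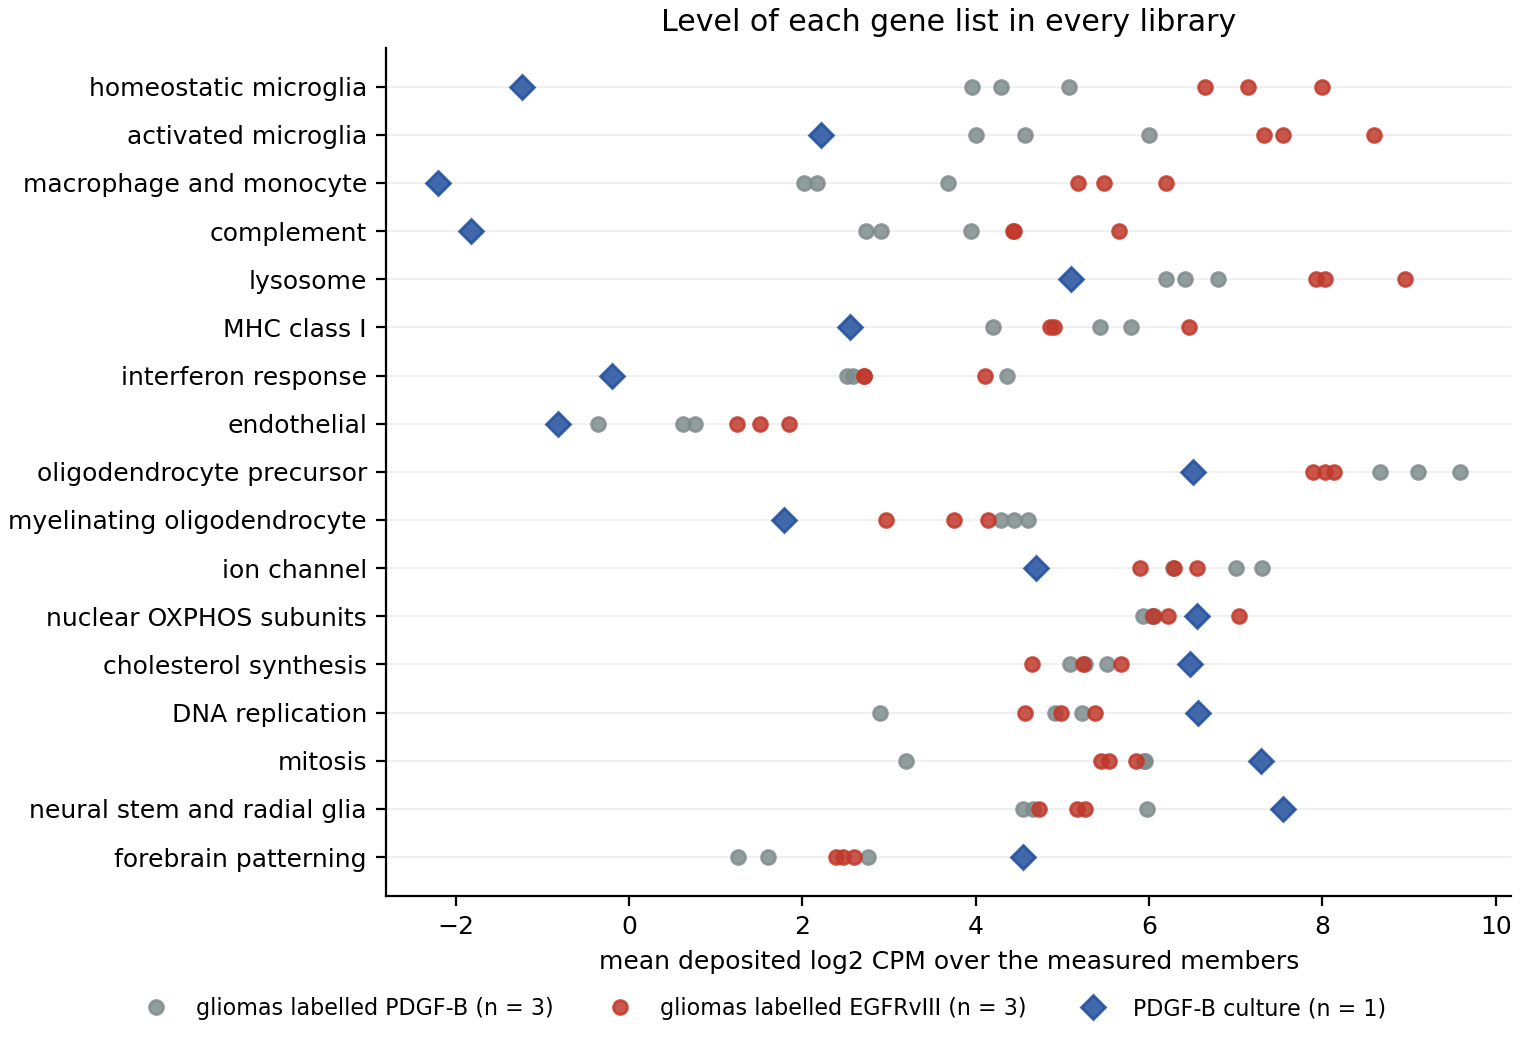
Mean deposited log2 CPM of each list in every library. The microglial, macrophage, complement and lysosomal rows are highest in the 3 gliomas labelled EGFRvIII and lowest in the culture, and the mitosis row is lowest in replicate 2 labelled PDGF-B.

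Interferon-responsive genes rose in 8 of 25, and the culture lay below all 3 gliomas for 23 of 25, where 34.1% of all genes did so. The median difference was 3.00. Ifi27, a mitochondrial interferon-induced protein, had 31.8, 40.4 and 27.6 CPM against 0.579 (5.69 ± 0.314, limma adjusted p = 0.00029), and was still higher in the gliomas labelled PDGF-B, at 62.0 to 85.7 CPM. Oasl2, a 2'-5' oligoadenylate synthetase-like gene, had 6.195, 16.1 and 5.75 CPM and no culture read, at least 108-fold more. Oas1a, a synthetase that senses double-stranded RNA, had 4.59, 15.7 and 2.83 CPM and no culture read, at least 88.9-fold more (limma adjusted p = 0.0181). Ifi44 had 16.7, 39.8 and 15.2 CPM against 0.0868 (limma adjusted p = 0.0139). Ifit2 rose modestly and evenly, to 73.8, 69.8 and 72.6 CPM from 27.0 (limma adjusted p = 0.00662). Ifit3, of the same family, had 3.36, 18.1 and 6.57 CPM against 0.453 (limma adjusted p = 0.0424) and lost its call in 4 of the 6 leave-one-out fits. Isg15 and Irf7 missed the test. The count was 5 without replicate 2 or replicate 3 labelled EGFRvIII, 15 without replicate 3 labelled PDGF-B and 2 with voom weights.

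Interferon acts through the interferon-stimulated response element (ISRE), searched here as GAAA and GAAA with any 2 bases between them, on either strand of the 250 bases before the RefSeq start (GRCm38.p6). It was present in 9 of the 19 interferon list members with a window (47.4%), against 309 of 11649 genes (2.65%). Windows of a pair of called members are shown because each holds overlapping or neighbouring matches, in capitals: Oas1a (chr5:120907526-120907775, minus strand) with 2 overlapping matches on the gene's strand, and Ifit3 (chr19:34583279-34583528, plus strand) with 2 matches on the opposite strand.
Oas1a: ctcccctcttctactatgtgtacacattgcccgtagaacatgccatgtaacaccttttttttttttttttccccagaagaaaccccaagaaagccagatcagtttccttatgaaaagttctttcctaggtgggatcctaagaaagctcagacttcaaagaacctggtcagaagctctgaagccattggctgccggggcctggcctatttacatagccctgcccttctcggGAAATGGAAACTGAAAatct
Ifit3: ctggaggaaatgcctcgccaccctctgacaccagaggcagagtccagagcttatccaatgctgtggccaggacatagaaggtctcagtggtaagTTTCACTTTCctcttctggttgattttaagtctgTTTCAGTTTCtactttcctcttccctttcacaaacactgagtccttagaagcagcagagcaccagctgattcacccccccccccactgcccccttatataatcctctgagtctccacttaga
The matches are descriptions of letters, and no binding was measured. Among called members Oas1a and Ifit3 held the motif, and the other members that held it, Gbp2, Gbp3, Isg15, Bst2, Stat2, Rsad2 and Ifit1, missed the test.

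MHC class I genes, which present peptides to T cells, rose in 5 of 15 with a median of 3.19, and the culture lay below all 3 gliomas for 14. H2-D1 had 206, 889 and 182 CPM against 8.98 (5.15 ± 1.01, limma adjusted p = 0.0204) and H2-T23 16.6, 64.2 and 18.9 CPM against 0.961 (limma adjusted p = 0.014). B2m, the shared light chain, had 285, 1311 and 259 CPM against 26.5 and missed the test (limma adjusted p = 0.0544). Closely related H2 genes can share reads, so their single values are uncertain. Without replicate 1 labelled EGFRvIII 2 were called, without replicate 3 labelled EGFRvIII 3, without replicate 2 labelled PDGF-B 8, and with voom weights 0. Class II genes were highest in 1 tumour. Cd74, the invariant chain, had 10.4, 422 and 36.0 CPM against 0.145 (limma adjusted p = 0.0623), and H2-Aa 1.99, 148 and 7.64 against 0.0579 (limma adjusted p = 0.129). Replicate 2 was the highest by far in both. Only H2-Ob of 8 measured members passed, at 3.16, 7.53 and 3.16 CPM with no culture read. The summed myeloid markers were also highest in replicate 2, and their part was not tested.

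The gliomas labelled EGFRvIII carried more transcript of several genes of the oligodendrocyte precursor, the glial progenitor that responds to PDGF. Of 23 markers 8 rose, none fell, the culture lay below all 3 gliomas for 16 and above for none, and the median was 1.56. Cspg4, the NG2 proteoglycan, had 615, 604 and 744 CPM against 101 (2.69 ± 0.359, limma adjusted p = 0.00435). Sox10, the transcription factor of the lineage, had 422, 711 and 537 CPM against 87.7 (2.63 ± 0.414, limma adjusted p = 0.00826). Opcml, an adhesion molecule, had 113, 117 and 106.5 CPM against 14.0, and Matn4, a matrix protein, 228, 134 and 193 CPM against 15.98. Cspg5, neuroglycan C, had 1359, 946 and 955 CPM against 160.0 (limma adjusted p = 0.00811). The early lineage factor Olig2 was as abundant in the culture, at 415, 557 and 541 CPM against 555 (-0.15 ± 0.329, limma adjusted p = 0.836), and Sox6 and Ptprz1 also missed the test. Without replicate 3 labelled EGFRvIII, or without replicate 1 labelled PDGF-B, 5 of 23 were called. The rise was not particular to this label. In the gliomas labelled PDGF-B, 14 of the 23 were called higher than the same culture library (7.73% of all genes), with a median of 2.55.

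Genes of myelinating cells rose in 4 of 15 measured, and in 1 with voom weights. Bcas1, a marker of early myelinating oligodendrocytes, had 409.9, 409 and 381 CPM against 70.8 (2.5 ± 0.245, limma adjusted p = 0.00134), and Mag, a myelin glycoprotein, 3.00, 6.61 and 6.05 against 0.463. Mobp, a myelin-associated basic protein of oligodendrocytes, had 6.77, 25.8 and 66.4 CPM with 3 culture reads, a wide spread among the gliomas. Mbp had 36.0, 94.8 and 165 CPM against 9.12, and its call was lost in 3 of the leave-one-out fits. Mog and Enpp6 missed the test, with Enpp6 at 0.287, 2.45 and 0.954 CPM against 1.19. Levels of Gpr17, a marker of committed precursors, were 76.8, 123 and 103 CPM against 33.7 (limma adjusted p = 0.142), while the gliomas labelled PDGF-B had 482 to 1267. Of the 15 measured myelinating genes, 9 were called higher than the culture in the gliomas labelled PDGF-B (7.73% of all genes). The list's median was 2.55 there and 1.05 in the gliomas labelled EGFRvIII.

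Of 15 measured genes of the EGF and PDGF families, 2 rose and 4 fell. Erbb3, a neuregulin receptor of the oligodendrocyte lineage, had 60.5, 62.1 and 47.0 CPM against 3.36 (4.04 ± 0.259, limma adjusted p = 0.000336). Erbb2, its partner, fell to 0.344, 0.239 and 0.629 CPM from 10.9 in the culture (-4.66 ± 0.67, limma adjusted p = 0.00572). Both were lower than in the gliomas labelled PDGF-B, by 1.22 for Erbb3 and 3.10 for Erbb2 on the log2 scale (limma adjusted p = 0.0283 for each). The ligand gene Hbegf was lower in the gliomas, at 10.7, 21.7 and 11.5 CPM against 109 (limma adjusted p = 0.0126), as was Nrg1, at 5.27, 3.23 and 3.60 against 33.7. Tgfa, another ligand, was higher, at 192, 171.5 and 209 CPM against 62.0, but its call was lost in 4 fits. Of the 17 genes of feedback on MAP kinase signalling downstream of such receptors, Phlda1 rose and Il17rd fell, and neither call survived all fits. Dusp6 had 229, 216 and 209.9 CPM against 152 and Spry2 149.6, 150.1 and 161 against 166, both short of the test.

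Voltage-gated and background channels rose in 8 of 20, with none lower and a median of 1.60. Kcnk2, a background potassium channel, was the most even, at 128, 132 and 136 CPM against 24.5 (2.43 ± 0.262, limma adjusted p = 0.00189). The sodium channel genes Scn2a and Scn3a had 74.8, 50.7 and 56.2 CPM against 7.04 and 91.9, 93.4 and 84.8 against 12.8. Kcnk1 had 14.2, 10.1 and 8.93 CPM against 0.347 (limma adjusted p = 0.0046). The count was 5 without replicate 1 of either group and with the medians set equal, 4 without replicate 3 labelled EGFRvIII and 2 with voom weights. Of 20 measured glutamate receptor and synaptic adhesion genes, Gria4 and Grin1 rose and neither call held in every fit, while Gria2 had 1746, 740 and 1465 CPM against 873 and missed the test. Among proteoglycans, Sdc3 rose to 856, 1051 and 1008 CPM from 219 (limma adjusted p = 0.00642). Ncan, neurocan, fell to 426, 465 and 551 CPM from 1806 (-1.92 ± 0.278, limma adjusted p = 0.0059). Gpc4, a glypican of radial glia, fell to 0.545, 1.14 and 1.04 CPM from 19.9.

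The culture stood out for genes of neural stem cells and radial glia. All 19 markers were above the 3 gliomas in the culture, where 29.6% of all genes were, and 6 passed as lower in the gliomas. The median was -1.75. Hes5, a Notch target that keeps progenitors undifferentiated, had 1.98, 4.05 and 4.93 CPM against 49.4 (-3.84 ± 0.603, limma adjusted p = 0.00826). Fabp7, the brain lipid-binding protein of radial glia, had 747, 692 and 325 CPM against 3100 (-2.49 ± 0.507, limma adjusted p = 0.0239). Nes, the intermediate filament nestin, had 164, 223 and 242 CPM against 1341 and missed the test (limma adjusted p = 0.134). It passed without replicate 2 or replicate 3 labelled PDGF-B. Sox2 had 134, 182 and 178 CPM against 397 and its call depended on the libraries kept. The count of 6 became 2 without replicate 1 or replicate 3 labelled EGFRvIII, 3 without replicate 1 labelled PDGF-B and 10 without replicate 3 labelled PDGF-B. The Notch list shares Hes5 and Notch1 with the stem cell and radial glia list. In it 4 of 18 fell (Hes5, Hey1, Jag1 and Notch1) and none rose. It had 1 call left without replicate 1 or 3 labelled EGFRvIII, and 6 lower and 1 higher without replicate 3 labelled PDGF-B. Notch1, the receptor, had 166, 134 and 174 CPM against 317.

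Some genes that pattern the forebrain were lower in the gliomas. Dlx1, a homeobox gene of interneuron development, had 0.311, 0.0963 and 0.848 CPM against 24.9 (limma adjusted p = 0.0101) and was among the 12 largest falls. It belongs to the neuroblast list, where it was the only call among 13 measured genes (7.69%, against 9.55% of all genes). Emx2 and Lhx2, factors of the dorsal telencephalon, had 6.87, 4.45 and 5.45 CPM against 34.1, and 12.6, 11.1 and 7.74 against 71.6. Meis2 had 64.2, 64.6 and 51.6 CPM against 263 (-2.14 ± 0.238, limma adjusted p = 0.00218). Gsx1, a ventral progenitor factor, went the other way, at 34.3, 47.9 and 43.3 CPM against 11.7 (1.82 ± 0.278, limma adjusted p = 0.00724). The forebrain patterning list, which does not hold Dlx1, had 4 lower and 1 higher of 16 measured. Astrocyte markers were mixed: of 16, S100b rose to 23.9, 10.6 and 14.99 CPM from 0.939, Fgfr3 and Slc4a4 fell (Slc4a4 lost its call in 4 of 6 leave-one-out fits), and Gfap ran from 21.6 to 97.1 CPM against 193 and missed the test. The astrocyte calls were 2 higher and 4 lower without replicate 3 labelled PDGF-B, 3 and 4 in the compared libraries alone, and 1, lower, with voom weights.

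Of 7 measured FGF genes 2 fell and 1 rose, of 12 IGF genes 1 fell and 1 rose, and of 16 imprinted growth genes 2 fell and 1 rose. In the FGF list 1 call, lower, was left without replicate 1 labelled EGFRvIII, and 4 lower and 1 higher were called without replicate 3 labelled PDGF-B or in the compared libraries alone. With voom weights 1 IGF gene and 1 imprinted gene were called, both lower. Fgf2, a ligand, rose to 43.6, 52.05 and 35.5 CPM from 14.2 (limma adjusted p = 0.0278), and Rian, an imprinted non-coding RNA, to 58.5, 40.7 and 73.7 CPM from 12.97 (limma adjusted p = 0.0182), and each lost its call without replicate 1 labelled EGFRvIII. Fgfr3, the receptor of astrocytes and radial glia, had 1.58, 3.38 and 5.64 CPM against 194, a 55.0-fold difference (-5.93 ± 0.831, limma adjusted p = 0.00521). Fgfr2 had 1.00, 3.61 and 1.75 CPM against 49.4 and missed the test (limma adjusted p = 0.0588). Igf2bp3, a fetal RNA-binding protein, had 1.08, 2.74 and 3.08 CPM against 123 (-5.83 ± 0.663, limma adjusted p = 0.00232). Grb10, an imprinted adaptor that restrains insulin and IGF receptors, had 0.688, 0.688 and 2.59 CPM against 58.3 (-5.68 ± 0.863, limma adjusted p = 0.0072). Gjc1, a connexin, fell from 46.8 CPM to 0.344, 0.239 and 0.763, a 104-fold difference, and Celsr1, a planar polarity cadherin, from 16.3 CPM to 0.229, 0.179 and 0.60. Dgkk, a diacylglycerol kinase, had 1.78, 1.23 and 2.54 CPM against 90.4. Clcf1, Cavin1, Ccdc136 and Prdm16 were also among the 12 largest falls, but each lost its call without replicate 1 and again without replicate 2 labelled EGFRvIII. Clcf1 had values identical to those of a listed gene without a symbol and is uncertain. In all 12, every glioma labelled EGFRvIII was below the culture, and so was every glioma labelled PDGF-B.

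**Figure D5:**
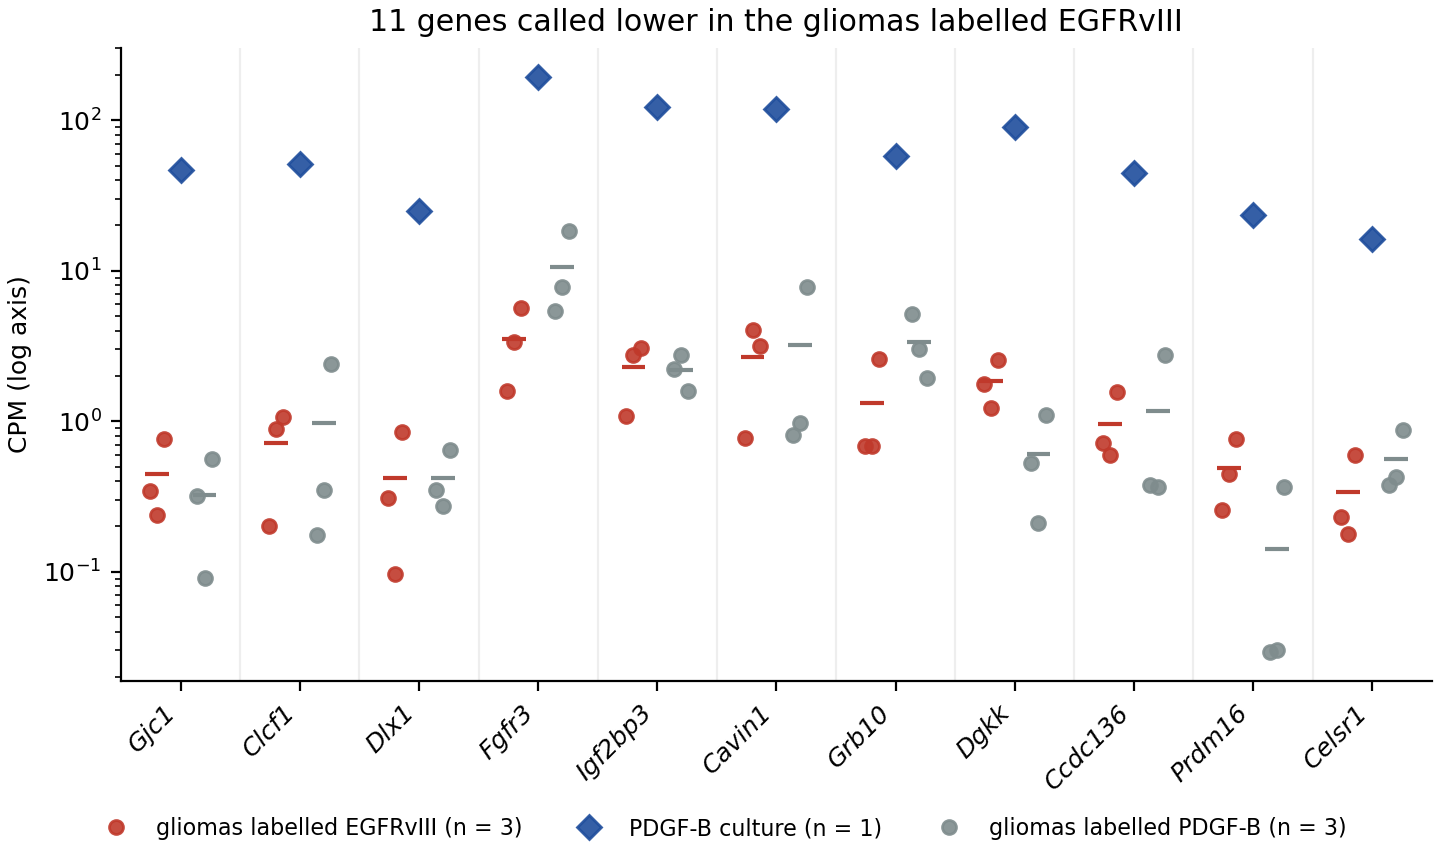
CPM on a log axis in all 7 libraries for 11 of the 12 genes called lower with the largest differences in the gliomas labelled EGFRvIII. The culture lies above every glioma in each gene, from 16.3 CPM in Celsr1 to 194 CPM in Fgfr3.

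Of 20 measured TGF-beta and BMP genes 6 rose and 4 fell, with a median of 0.87, and 3 rose and 2 fell when replicate 1 or replicate 3 labelled EGFRvIII was left out. Id1, Id3 and Id4, inhibitors of basic helix-loop-helix factors that BMP induces, had 1.06, 2.51 and 1.39 CPM against 33.3, 2.41, 3.64 and 1.47 against 48.3, and 0.487, 1.34 and 1.39 against 32.3. Id1 and Id4 kept their calls in every fit that left out 1 glioma (limma adjusted p = 0.0109 and 0.0173), and Id3 did not. Id2 missed the test. Smad7, the feedback inhibitor that TGF-beta induces, rose, with 21.3, 16.4 and 21.9 CPM against 3.04 (limma adjusted p = 0.00278). Of 21 measured Wnt genes Sfrp2 rose and Wnt5b, Wnt7a and Fzd2 fell, and no call remained without replicate 1 labelled EGFRvIII. In the hedgehog pathway, Ptch1, the receptor and target, fell to 63.5, 48.9 and 73.2 CPM from 164 (-1.42 ± 0.273, limma adjusted p = 0.0189).

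Genes of dividing cells were below the culture in every glioma labelled EGFRvIII, yet none passed with limma or voom weights, and an unadjusted p under 0.05 was reached by 0 mitosis and 9 replication genes. All 25 mitosis genes and all 25 DNA replication genes were above the 3 gliomas in the culture, where 29.6% of genes were, with medians of -1.74 and -1.55. Mki67, the proliferation antigen, had 425, 285 and 530.2 CPM against 1361 (-1.77 ± 1.12, limma adjusted p = 0.395). Cdk1, the mitotic kinase, had 43.4, 41.9 and 41.1 CPM against 139.8 (limma adjusted p = 0.336), and Ccnb1, its cyclin, 56.0, 74.6 and 59.6 CPM against 202 (limma adjusted p = 0.336). Rrm2, a subunit of ribonucleotide reductase, had 53.4, 41.9 and 92.2 CPM against 309.8. The gliomas labelled PDGF-B share the fit, and among them Cdk1 was 5.54 CPM in replicate 2 and 34.0 and 39.4 CPM in the others. Without that library 20 of the 25 mitosis genes and 10 of the 25 replication genes were called lower, and 16 and 7 in a fit of the 4 compared libraries alone.

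The CCAAT box, bound by the NF-Y factor and common in mitotic promoters, was in 17 of the 20 mitosis genes with a window (85%) and 15 of 20 replication genes (75%), against 4206 of 11649 genes (36.1%), counting either strand. The windows of Ccnb1 (chr13:100786487-100786736, minus strand) and Cdk1 (chr10:69352913-69353162, minus strand) are shown as the pair whose products work together. They hold 2 matches on the gene's strand and 3 on the opposite strand, in capitals.
Ccnb1: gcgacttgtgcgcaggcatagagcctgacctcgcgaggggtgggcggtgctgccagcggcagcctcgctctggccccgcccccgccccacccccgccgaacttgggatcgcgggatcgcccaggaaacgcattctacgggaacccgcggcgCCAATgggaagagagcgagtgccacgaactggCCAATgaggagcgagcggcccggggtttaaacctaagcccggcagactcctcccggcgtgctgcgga
Cdk1: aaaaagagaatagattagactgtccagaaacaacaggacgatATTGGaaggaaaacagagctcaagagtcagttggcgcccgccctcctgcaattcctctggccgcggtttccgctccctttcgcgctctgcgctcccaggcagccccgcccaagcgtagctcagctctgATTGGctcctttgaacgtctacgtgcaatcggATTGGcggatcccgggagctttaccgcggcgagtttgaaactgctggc
The E2F letters TTTGGCGC were in 3 of 20 replication genes (15%), 0 of 20 mitosis genes and 0.798% of all genes. For the myeloid lists, the PU.1 letters GAGGAAGT were in 0 of 13 homeostatic and 1 of 17 activated microglia markers and 1 of 13 macrophage markers, against 2.29% of all genes.

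None of 18 inhibitors and regulators of the RB pathway passed with limma or voom weights, and 2, Cdkn1c and Rbl2, had an unadjusted p under 0.05. Cdkn1a, the p53-induced inhibitor p21, had 88.8, 453 and 117 CPM against 313 (limma adjusted p = 0.615). Ccnd1, cyclin D1, had 1330.0, 1683 and 1590.0 CPM against 1195, and Trp53 70.4, 84.2 and 83.7 against 79.9. Of 25 p53 targets only Polk was called, lower, at 16.6, 21.2 and 18.2 CPM against 42.1, and its call did not hold in every fit. Ccng1 had 138, 411 and 139.8 CPM against 602 and missed the test. Without replicate 2 labelled EGFRvIII, 5 of 25 were called lower. Ezh2, the methyltransferase of Polycomb complexes, fell to 57.5, 41.8 and 63.9 CPM from 204 and lost its call in 4 fits. Ezh1, its counterpart in resting cells, rose to 23.2, 18.9 and 24.4 CPM from 7.18 (1.61 ± 0.284, limma adjusted p = 0.0136).

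Sterol synthesis was lower in the gliomas in 22 of 24 genes by the order of the libraries, with a median of -1.47, and only Cyp51, the sterol demethylase, passed (77.0, 109 and 132 CPM against 306, limma adjusted p = 0.0266). Its call was lost without replicate 1 labelled PDGF-B. Hmgcs1, an early enzyme, had 171, 280.3 and 413 CPM against 958 (limma adjusted p = 0.0541). Without replicate 3 labelled EGFRvIII 8 of 24 were called lower, and 6 with the medians set equal. Mitochondrially encoded genes fell in 2 of 13, mt-Nd2 (2868, 2807 and 2758 CPM against 8183) and mt-Nd6, and 6 of 13 fell with the medians set equal. Neither held without replicate 1 or 3 labelled EGFRvIII or replicate 1 labelled PDGF-B. Nuclear genes of oxidative phosphorylation showed no call among 25 with limma or voom weights, 0 at an unadjusted p under 0.05, and a median of -0.10 that turned to 0.02 without replicate 1 and 0.07 without replicate 3 labelled EGFRvIII. Without replicate 2, 2 were called lower. Hypoxia and glycolysis genes had 2 calls of 25, Adm and Ankrd37, both lost without any one of the gliomas labelled EGFRvIII, while 5 were called in the compared libraries alone and 7 without replicate 3 labelled PDGF-B. Vegfa had 382, 97.0 and 475 CPM against 66.9 (limma adjusted p = 0.212), and Gapdh 87.0, 133 and 76.1 against 96.8.

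Of 21 immediate early and heat shock genes 5 rose, and 3 with voom weights. The inducible heat shock genes Hspa1a and Hspa1b, near-identical copies whose reads may be split, had 243, 256 and 69.8 CPM against 0.538, and 211, 237 and 75.8 against 1.14 (limma adjusted p = 0.000844 and 0.00125). Atf3, a stress transcription factor, had 122, 191 and 86.5 CPM against 7.61 (4.04 ± 0.557, limma adjusted p = 0.00497), and Klf2 87.7, 37.7 and 36.7 against 3.85. The classic immediate early genes missed the test: Fos had 569, 659 and 458 CPM against 528 (limma adjusted p = 0.96) and Egr1 896, 708 and 865 against 1914 (limma adjusted p = 0.13). The tumours were dissected and sorted before RNA was taken, and the part of handling was not tested. Hmox1, haem oxygenase, had 314, 2380.0 and 553 CPM against 24.0 (limma adjusted p = 0.0295) and lost its call without replicate 3. Gsta4 fell, without holding in every fit, and other oxidative stress genes missed the test. Of 20 measured genes of the integrated stress response only Cebpb, which myeloid cells use, was called.

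Matrix and mesenchymal genes mostly rose where they passed. Of 23 measured mesenchymal and YAP-related genes 6 rose and 1 fell. Lox, the collagen cross-linking oxidase, had 13.6, 12.3 and 10.5 CPM against 0.376 (4.8 ± 0.417, limma adjusted p = 0.000857), Runx1 44.6, 33.8 and 28.3 against 1.05, and Tgm2, transglutaminase, 157, 622 and 58.3 against 0.782. The YAP target Ccn1 fell to 48.8, 44.97 and 30.2 CPM from 295 (-2.86 ± 0.396, limma adjusted p = 0.005). Cd44 and Vim, often used as mesenchymal markers, missed the test, with Vim at 515, 1289 and 776 CPM against 2693. Among 25 matrix genes 6 rose and none fell. Col4a1, a basement membrane collagen, had 50.6, 44.1 and 49.6 CPM against 15.6 (1.62 ± 0.285, limma adjusted p = 0.0137), Timp2 292, 436 and 289.7 against 72.4, and Mmp15, a membrane protease, 1755, 1714 and 2312 against 499.6. Fn1, fibronectin, had 376, 1580.0 and 762 CPM against 77.9 and lost its call without replicate 3. Sema4d, a guidance molecule of oligodendrocytes and immune cells, had 47.9, 47.3 and 68.1 CPM against 5.96 (3.16 ± 0.32, limma adjusted p = 0.00151).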

How the data were processed

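RNA of 7 libraries was sequenced on BGISEQ-500, per the labels' protocols, which name both polyA selection and rRNA depletion without saying which was used. STAR, edgeR and the build mm10 are named, with no versions, in the submitters' processing notes. The authors deposited log2 CPM values per gene, and the header of 1 file (replicate 3 labelled EGFRvIII) names no unit. The values fit log2 of CPM with a prior count of 2. Taking the prior off gave reads that were often not whole (62.77% to 69.73% of the low values checked were within 0.02 of a whole read), so they are estimated, and the deposited log2 values were tested. The design had allowed for counts. CPM printed here are the recovered reads scaled to the effective library size the authors used.

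All 7 libraries in 3 groups were fitted with limma 3.58.1 (R 4.3.3) with an intensity trend and robust moderation, 4 residual degrees of freedom and Benjamini-Hochberg adjustment over 17422 genes. Nothing in the labels ties a sample to 1 animal or culture beyond the tumours being independent, so p-values measure the spread between these samples. Symbols and gene coordinates came from the GENCODE annotation (17254 IDs had a symbol, 168 did not), and promoter windows from RefSeq tables. Genes named are the drivers, the 12 called genes of largest difference in each direction with at least 10 CPM in the higher group, the 3 called members of smallest p per list and direction, the most abundant members of the other-cell-type lists, and further list members as examples. Some genes that these rules select are not reported here. Members and lists were chosen with earlier results of these data known. A gene absent from the culture was set against a floor of 3 reads, and such floors and intervals cover counting error only. The fit was tested on simulated data. Alternatives were other samples in the fit, scaling, pseudocount, filters, moderation, voom weights, thresholds, a replicate block and leaving out each glioma. Leaving out the lone culture was not possible.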

Additional observations from a re-analysis of the deposited data

Results flagged for a closer look

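The gliomas labelled EGFRvIII and those labelled PDGF-B differed by the test of the difference itself (limma, adjusted p from 0.000161 to 0.0439) in 39 of the named genes. Values are log2 differences, EGFRvIII label minus PDGF-B label. The oncogene genes were Pdgfb at 6.65 and Egfr at -7.2, with Cdkn2a at 2.31. Microglial and macrophage genes were C1qb at 3.73, C1qa at 3.73, C1qc at 3.54, Ctss at 3.11, Fcrls at 3.79, Itgam at 3.09, Laptm5 at 3.22, Tyrobp at 3.85, Fcgr3 at 3.59, Rgs1 at 3.44, Cx3cr1 at 3.19, P2ry13 at 3.01, Itgax at 2.87, Apoe at 3.46, Ctsd at 3.51, Mpeg1 at 3.16, Adgre1 at 3.77 and Csf3r at 2.98. B cell genes were Ighm at 2.7 and Cd79b at 2.98. Secreted and immune genes were Tgfb1 at 3.32, Igf1 at 4.71, Ccl3 at 3.24, Il1a at 2.8 and Ifi27 at -1.15. The lysosomal enzymes Man2b1 and Lgmn differed by 2.39 and 2.84. Glial genes were S100b at -2.29, Erbb3 at -1.22 and Erbb2 at -3.1. Stress, Wnt and matrix genes were Atf3 at 3.02, Hmox1 at 4.24, Sfrp2 at 1.36, Lox at 1.97, Timp2 at 1.25 and Col4a1 at -1.82.

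These differences rest on few tumours. In 6 fits that each left out 1 glioma, 2 of the 39 were called every time, Pdgfb and Egfr. Itgax was called in 3 fits, Ifi27 and Il1a in 0, and the others in 1, the fit without replicate 3 labelled PDGF-B. The sign was the same in all 6 fits for 39 of 39.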

How the results depend on the processing

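Against the culture 1663 genes were called. The count was 1076 with a mean of at least 10 CPM, 721 with voom weights (668 of them among the 1663) and 704 at an adjusted p under 0.01. Leaving out 1 glioma gave 1058 to 2030 calls. Replicates 1 and 3 labelled EGFRvIII moved the count most downward, to 1084 (1034 shared) and 1058 (1024 shared). Between the glioma groups 576 genes were called, with 332 at a mean of at least 10 CPM, 224 without trend and robust moderation and 5 at an adjusted p under 0.01. Leaving out 1 glioma gave 3 to 1250 calls: 18, 15 and 5 without replicates 1 to 3 labelled EGFRvIII, and 3, 6 and 1250 without replicates 1 to 3 labelled PDGF-B. The replicate block over the 6 gliomas gave 18 calls. Deviations of same-numbered gliomas from their group means correlated at 0.175, -0.036 and -0.08. With 3 gliomas per group and no reference spread, these values cannot decide whether the numbers pair them. No paired analysis was possible because the culture has 1 library, so it shares fewer than 2 replicate numbers with the gliomas. The causes were not tested. No called gene changed sign in a fit that also called it. Some list medians near 0 or over few genes did: the EGF and PDGF families went from 0.19 to -0.02 with the medians set equal, and mature neuron markers from -0.91 to 1.64 and axon guidance genes from -0.57 to 0.19 at a mean of at least 10 CPM, which left 3 and 21 members. Of 129 named genes called against the culture, 88 kept the call in all 6 fits that left out 1 glioma. Low reads in the culture limit the precision of the large differences.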

Other observations

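Genes of the Y chromosome separated the tumours of 1 label. Ddx3y had 0, 0 and 22.9 CPM in replicates 1 to 3 labelled EGFRvIII, 0.029 in the culture and 3.09, 2.58 and 6.81 in the gliomas labelled PDGF-B. Eif2s3y had 0, 0 and 5.73 CPM, 0 in the culture and 0.903, 1.45 and 3.39 in the gliomas labelled PDGF-B. Xist, the X inactivation transcript, had 3202, 2033 and 2768 CPM in the gliomas labelled EGFRvIII, 3170.0 in the culture and 2735 to 3258 in the others. The labels give no sex.

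Some abundant called genes stand outside every list and were chosen after their values were seen. Pnlip, pancreatic lipase, had 103, 157 and 134 CPM in the gliomas labelled EGFRvIII, 85.3 to 143 in those labelled PDGF-B and 0.174 in the culture (log2 difference 9.13, limma adjusted p = 9.29e-05). Gpr37l1, a glial receptor gene, had 346, 412 and 222 CPM against 4.02 (limma adjusted p = 0.000533). Serpina3n, a protease inhibitor of reactive glia, had 225, 462 and 159.6 CPM against 3.15 (limma adjusted p = 0.007). Cd24a, a surface protein of immature neural cells, was lower, at 5.05, 21.9 and 7.61 CPM against 311 (limma adjusted p = 0.035).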
